A study of Mus musculus with 4 samples.

Results

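Cytosolic ribosomal protein genes were examined in regulatory T (Treg) cells with and without the deubiquitinase CYLD. Members were genes whose probe set carried exactly 1 gene symbol of the Rps or Rpl type, together with Rpsa, Rplp0, Rplp1 and Rplp2. Pseudogenes and the ribosomal S6 kinases were left out. The rule found 59 of the 19938 genes on the arrays, 22 of the small and 37 of the large ribosomal subunit, and 215 probe sets for them, of which the brightest was kept for each gene. Of these, 57 passed the filter on dim genes and were tested. The genes Rpl3l and Rpl39l did not.

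The study hybridised RNA of sorted YFP-positive Treg cells to 4 Affymetrix Mouse Gene ST arrays, 2 for each genotype. Wild-type cells came from Cyld+/+ Foxp3-yfp-cre mice and knockout cells from mice that combined Cyld fl/fl with the same Foxp3-yfp-cre, all C57Bl6 and aged 6 to 8 weeks. All mice therefore carried the Cre, which is expressed from Foxp3, so that deletion is restricted to cells that express it. The labels name spleen in one field and spleen with lymph nodes in others, and do not say whether replicates were separate or pooled mice, so p-values measure only the spread between these samples, which may be technical. Defining Treg genes were bright on every array; Foxp3 read 2016 and 1881 in wild type against 1697 and 1553 in the knockout. Cyld read 524 and 502 in wild type against 284 and 218 in the knockout (log2 fold change -1.04 ± 0.17, SE).

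Each cytosolic ribosome joins a small subunit, which reads the messenger RNA, to a large subunit, which forms the peptide bond. Their proteins are made in near equal amounts, and their messenger RNAs are among the most abundant in a cell. These messenger RNAs begin with a terminal oligopyrimidine (TOP) tract through which the kinase complex mTORC1 and the RNA-binding protein LARP1 regulate their translation. In T cells ribosome production goes with activation and growth, and the transcription factor Myc is a known activator of ribosome synthesis.

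Ribosomal protein genes read slightly lower in the knockout almost without exception, but no single gene passed the test. The mean log2 value was lower in the knockout for 56 of the 57 members tested, where 53.3% of all 13956 genes tested were. On 51 of the 57, both knockout arrays read below both wild-type arrays, a pattern found in 26.2% of all genes tested. The median knockout level was 80.8% of wild type and the median log2 fold change was -0.31, against -0.02 over all genes tested. In bulk RNA such a difference does not tell fewer cells of a type from less RNA per cell. The exception was Rps27l, which read higher on both knockout arrays, a pattern found in 22.5% of all genes.

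With limma at an adjusted p under 0.05, 0 of the 57 members were higher and 0 lower, where 4.79% of all genes tested were called higher and 3.5% lower. At an unadjusted p under 0.05, 20 members were lower and 1 was higher, against 10.2% and 9.77% of all genes. The fit pools the variance over all genes, giving each gene a standard error of 0.17, and the smallest change it called was 0.49 on the log2 scale, so differences of the size seen here lay below what it calls. With a standard error that follows brightness, 0.08 to 0.19 over the members, limma called 31 of the 57 lower and 0 higher, against 4.12% and 4.79% of all genes. With no pooling of variances it called 0 genes, with 29 members lower and 0 higher at an unadjusted p under 0.05, against 6.96% and 6.03% of all genes.

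**Figure D1:**
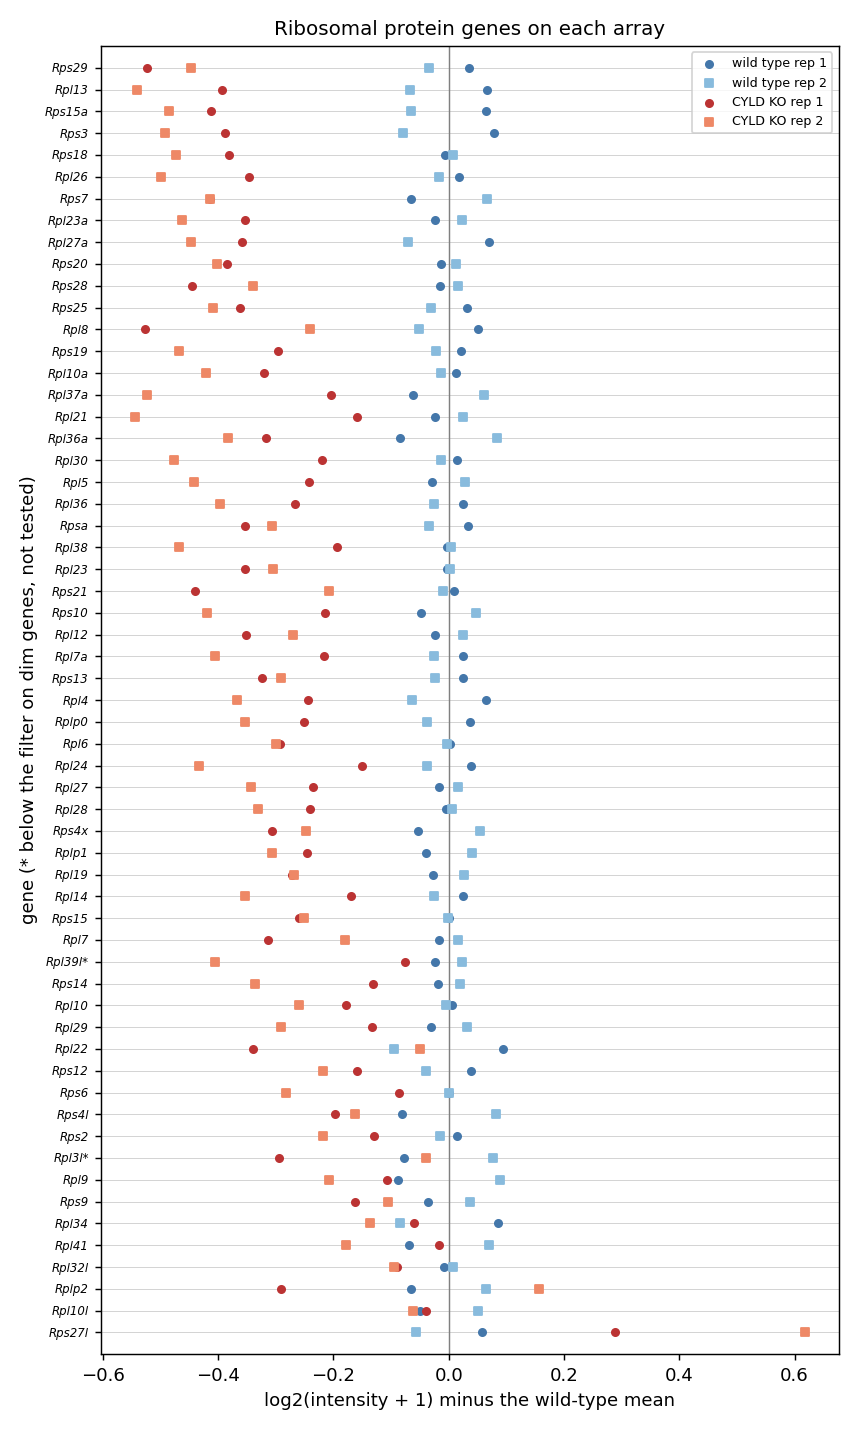
Each row is a ribosomal protein gene, ordered by its difference between genotypes, and the points are the 4 arrays as log2(intensity + 1) minus the wild-type mean. Knockout points (red and orange) lie left of both wild-type points (blue) for 52 of the 59 genes, and right of them only for Rps27l. Over all 19938 genes, 23.6% read lower without overlap.

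The shift was of similar size on both knockout arrays. The median member lay 0.26 below the wild-type mean on knockout replicate 1 (log2 deviation -0.26) and further below it on replicate 2 (-0.34), while the median over all genes tested moved to -0.01 and -0.04. Of the 57 members, 53 read below both wild-type arrays on replicate 1, where 38% of all genes tested did, and 54 on replicate 2, where 44% did. Replicate 2 was the lower of the knockout arrays for 40 members and the higher for 17. Between the wild-type arrays the members differed by a median of 0.00, with an SD over members of 0.09; between the knockout arrays the median was -0.08 and the SD 0.16. The members' kept probe sets made up 2.65% and 2.71% of the summed intensity of all genes on the wild-type arrays, against 2.26% and 2.15% on the knockout arrays.

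Ribosomal protein genes were among the brightest on the arrays, and the median of the other bright genes was near 0. In wild type, 45 of the 59 members read above 1000, and the brightest, Rps6, read 4793 on both arrays, where the brightest gene of all reached 7058. Of the 57 members tested, 50 lay in the brightest decile of genes. In that decile the other 1346 genes had a median log2 difference of 0.00, against -0.31 for the members. The other genes of this decile had both knockout arrays below both wild-type arrays in 32.8% of cases.

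**Figure D2:**
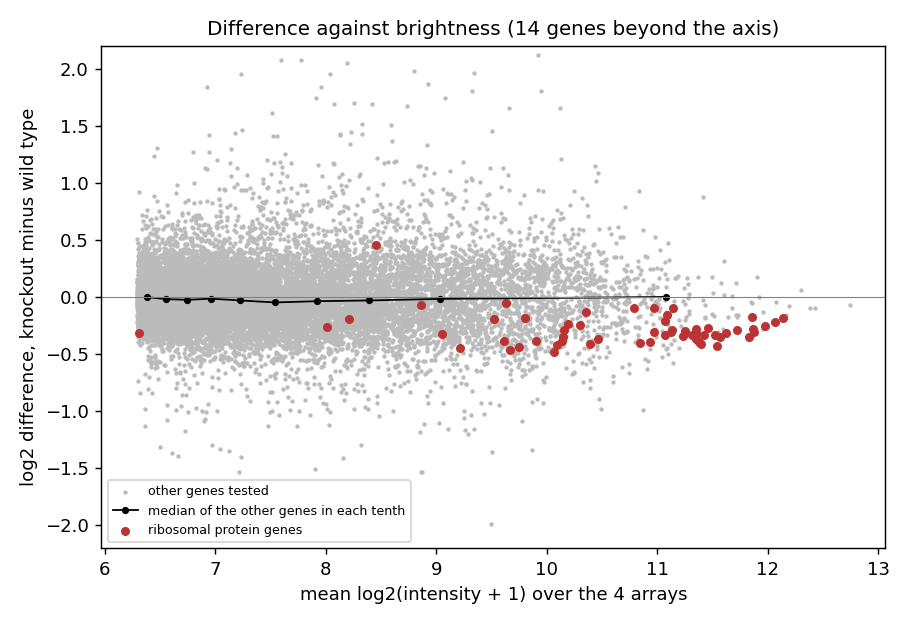
The log2 difference between genotypes is plotted against mean log2(intensity + 1) over the 4 arrays for the 13956 genes tested, apart from 14 beyond the axis, with the ribosomal protein genes in red and, in black, the median of the other genes in each decile by brightness. The black line stays between -0.05 and 0.00 while the red points cluster near the median of -0.31.

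Promoter sequences were available for 47 of the 59 members from RefSeq (build GRCm38.p6). The stretches around the annotated start are shown for the brightest member, Rps6, for the 5 members with a promoter entry among the 6 with the largest differences, and for Rps27l, which ran the other way. Each runs over the 20 bases before the start and the 20 from it, on the gene's strand, with the longest unbroken run of C and T in capitals.
Rps6, chr4:86857348-86857387, minus strand: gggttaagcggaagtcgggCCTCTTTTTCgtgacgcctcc
Rps18, chr17:33955646-33955685, minus strand: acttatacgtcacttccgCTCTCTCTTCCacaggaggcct
Rpl13, chr8:123102330-123102369, plus strand: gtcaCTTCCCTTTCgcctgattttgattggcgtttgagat
Rps15a, chr7:118116128-118116167, minus strand: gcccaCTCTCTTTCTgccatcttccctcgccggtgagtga
Rps3, chr7:99483690-99483729, minus strand: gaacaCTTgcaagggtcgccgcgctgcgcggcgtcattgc
Rpl26, chr11:68901546-68901585, plus strand: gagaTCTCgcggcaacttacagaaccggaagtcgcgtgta
Rps27l, first of 2 annotated starts, chr9:66946066-66946105, plus strand: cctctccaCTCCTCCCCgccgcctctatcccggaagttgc

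Runs of C and T, with which TOP messenger RNAs begin, differed in length and place among these stretches. The longest run was 9 to 11 bases in Rps6, Rps18, Rpl13, Rps15a and Rps27l, but 3 bases in Rps3 and 4 in Rpl26. The runs of Rps6 and Rps18 spanned the annotated start, and the others lay wholly before it. Whether any of them is a TOP tract was not tested. A run of 8 or more C or T on the gene's strand was searched over the 50 bases centred on the start. It was found for 22 of the 47 members (46.8%) and for 22.3% of the 27025 genes with a promoter sequence. In this paragraph, all genes means these 27025, not the genes tested on the arrays. The letters CCGGAAG, the core bound by ETS family factors, occurred on either strand of the 300-base promoter in 18 of 47 members (38.3%), against 9.93% of all genes; the Rps27l and Rpl26 stretches above hold them. The Myc-binding letters CACGTG occurred in 5 of 47 (10.6%) against 8.09% of all, and TATAAA in 6 of 47 (12.8%) against 15.7%. AAGATGGC, which the factor YY1 can bind, occurred in 2 of 47 (4.26%) against 3.19%. None of these searched words contains another, though a C and T run can overlap the reverse complement of CCGGAAG. A match describes the letters only, and annotated starts can lie some bases from those used in Treg cells.

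Among small subunit genes 21 of 22 read lower in the knockout, where 53.3% of all genes did, with a median log2 fold change of -0.32. Rps29, a small zinc-binding protein of the subunit head, had the largest difference. Its probe set read 1294 and 1233 in wild type against 879 and 927 in the knockout. The groups did not overlap, and the knockout mean was 71.4% of wild type (log2 fold change -0.48, 95% interval -0.82 to -0.15, limma adjusted p = 0.0509). Rps15a, another small subunit protein, read 726 and 663 in wild type against 521 and 495 in the knockout (limma adjusted p = 0.0819). Rps3, which lies at the messenger RNA entry channel, read 1059 and 949 against 766 and 713 (adjusted p = 0.0919 by limma). Both genes kept their knockout arrays well below the wild-type arrays.

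Rps18, a protein of the subunit head, was the brightest of the 6 members with the largest differences. It read 3442 and 3476 in wild type against 2656 and 2491 in the knockout (log2 fold change -0.43, limma adjusted p = 0.107). The spread within each genotype was small beside the gap between them. Rps20 read 3031 and 3085 in wild type against 2342 and 2314 in the knockout, and Rps7 read 2978 and 3262 against 2339 and 2338. Rps28 went from 2211 and 2259 to 1641 and 1767 in the knockout. Rps20, Rps7 and Rps28 and other members beyond the fixed rule were named after their values were seen.

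Rps19, the gene most often mutated in Diamond-Blackfan anaemia, a red cell aplasia, read 907 and 881 in wild type against 728 and 646 in the knockout (log2 fold change -0.38). Of 18 known Diamond-Blackfan genes listed, 8 had a single-symbol probe set and were tested. All 8 had both knockout arrays below both wild-type arrays, as 51 of the 57 members and 26.2% of all genes did. The median log2 fold change of the 8 was -0.39. Rpsa, the laminin receptor protein of the small subunit, read 3143 and 2999 against 2402 and 2481 (log2 fold change -0.33). Rps25, a protein needed for some internal ribosome entry, read 1116 and 1070 in wild type against 850 and 823 in the knockout.

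Some bright small subunit genes differed less. Rps6, the substrate of the S6 kinases, read 4793 and 4793 in wild type against 4514 and 3940 in the knockout (log2 fold change -0.18, 95% interval -0.52 to 0.15). Its knockout arrays differed from each other by more than the nearer of them differed from wild type. Rps2 read 3976 and 3894 against 3596 and 3383, and Rps9 read 1339 and 1409 against 1228 and 1277. Rps15 was tight within each genotype, at 4413 and 4406 in wild type against 3684 and 3704 in the knockout (log2 fold change -0.26, limma adjusted p = 0.412). The high adjusted p of Rps15 follows from the standard error shared by all genes.

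Among large subunit genes 35 of 35 tested read lower in the knockout, where 53.3% of all genes did, with a median log2 fold change of -0.30. Of these, 30 had no overlap between genotypes, where 26.2% of all genes tested read lower without overlap. Rpl13 had the largest difference, reading 1004 and 914 in wild type against 729 and 658 in the knockout (log2 fold change -0.47, limma adjusted p = 0.0648). Rpl26, which binds the Trp53 messenger RNA besides its place in the ribosome, read 1279 and 1248 against 993 and 893 (log2 fold change -0.42, adjusted p = 0.112 by limma). The knockout arrays of both genes stayed below the wild-type arrays. Rpl23a read 1524 and 1574 in wild type against 1211 and 1124 in the knockout, and all 13 of its probe sets had a lower mean in the knockout, between -0.46 and -0.38 on the log2 scale.

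Members that bind the p53 ubiquitin ligase MDM2 when ribosome assembly is disturbed also read lower. Rpl5 read 2661 and 2769 in wild type against 2294 and 1999 in the knockout (log2 fold change -0.34). Rpl23 read 2847 and 2857 against 2231 and 2308 (log2 fold change -0.33). With Rps7, described above, these are the 3 tested of 4 listed. All 3 read lower without overlap, beside 51 of the 57 members and 26.2% of all genes. Rps27l, which was not on that list though its product also binds MDM2, read higher (log2 fold change 0.45). The list was short, and other unlisted members were not sorted by MDM2 binding.

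The stalk proteins, which recruit the translation factors to the large subunit, were uneven. Rplp0, the stalk base, read 4286 and 4068 in wild type against 3507 and 3269 in the knockout (log2 fold change -0.30). Rplp1 read 3994 and 4220 against 3461 and 3317 (log2 fold change -0.28). For both the genotypes did not overlap. Rplp2, whose single probe set was far dimmer, read 456 and 499 in wild type against 390 and 531 in the knockout, so that its groups overlapped and its direction turned without knockout replicate 1 (log2 fold change 0.16, against -0.07 with all arrays).

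Knockout replicate 2 read well below replicate 1 in several large subunit genes. Rpl21 read 4053 and 4194 in wild type against 3693 and 2826 in the knockout. Rpl37a read 1539 and 1677 against 1395 and 1117, and Rpl38, which aids translation of Hox messenger RNAs, 2402 and 2413 against 2106 and 1741. In Rpl8 the order was the other way, with 1331 and 1240 in wild type against 891 and 1087 in the knockout. In all 4 genes both knockout arrays lay below both wild-type arrays. Without knockout replicate 1, limma called 4 of 57 members lower, Rpl13, Rpl21, Rpl26 and Rpl37a, where 5.5% of all genes were, and 1 higher, Rps27l, where 6.58% were.

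**Figure D3:**
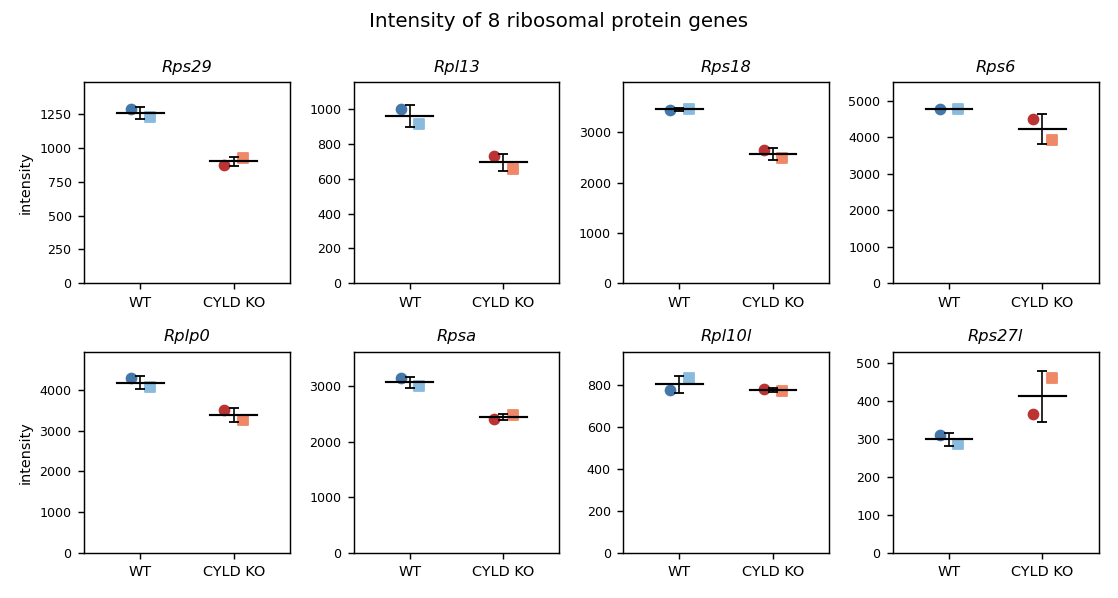
Intensity on each array is shown for 8 ribosomal protein genes, with bars at the mean of the 2 arrays of a genotype and error bars of 1 SD; each axis starts at 0. Rps29, Rpl13, Rps18, Rplp0 and Rpsa separate by genotype downwards in the knockout, Rpl10l overlaps, and Rps27l lies higher in the knockout, at 366 and 461.

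Rps27l was the only member with a higher mean in the knockout. It encodes a paralog of the small subunit protein RPS27 and is a known target gene of p53. Rps27 itself had no single-symbol probe set and was not among the members. Its single probe set read 312 and 288 in wild type against 366 and 461 in the knockout. Both knockout arrays lay above both wild-type arrays, and replicate 2 was clearly the higher. The knockout mean was 138% of wild type (413.5 ± 66.8 against 300.1 ± 16.9, mean ± SD, n = 2), a log2 fold change of 0.45 with a 95% interval of 0.12 to 0.79 and a limma adjusted p = 0.0780. It passed with cyclic loess normalization (limma adjusted p = 0.0499) and without knockout replicate 1 (limma adjusted p = 0.0111), and over all alternatives its adjusted p reached up to 0.502.

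Other paralogs departed little from wild type or were dim. Rpl10l, a paralog of Rpl10 known from testis, read 778 and 834 in wild type against 784 and 771 in the knockout, with overlapping groups and a log2 fold change of -0.05 (95% interval -0.38 to 0.28). Its parent gene Rpl10 read 4646 and 4612 against 4089 and 3867 (log2 fold change -0.22), with no overlap. Rps4l read 897 and 1004 against 828 and 848, and its parent Rps4x 2766 and 2981 against 2322 and 2417. Rpl32l read 2064 and 2087 against 1951 and 1943 (log2 fold change -0.09). The dimmest members were Rpl3l, a paralog known from muscle, at 65.1 and 72.6 in wild type against 55.9 and 66.9 in the knockout, and Rpl39l at 77.1 and 79.7 against 74.3 and 58.9; both lay below the filter. Near-identical family members can share probes, and to that extent paralog and parent values are not independent.

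Leaving out the paralogs, a step added after seeing the data, removed Rps27l, the only member that read higher. The 53 remaining members tested therefore all read lower in the knockout, 49 without overlap, against 26.2% of all genes. The median log2 fold change of the 53 was -0.31. Small differences and overlap were found among them in Rpl34, at 1942 and 1726 in wild type against 1755 and 1665 in the knockout, in Rpl41, at 2230 and 2455 against 2313 and 2068, and in Rpl22, at 338 and 297 against 250 and 306. Rpl41 changed direction with quantile normalization (log2 fold change 0.02, against -0.10). The probe set annotated with Rpl12 alone was dim, at 86.0 and 89.0 in wild type against 68.4 and 72.4 in the knockout, just inside the filter, and Rpl14 was also dim for this family, at a mean of 283 in wild type and 236 in the knockout.

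Repeated probe sets gave the same direction. Of the 59 members, 39 had more than 1 probe set, and in all 39 every probe set had a lower mean in the knockout. Over all 215 probe sets with 1 member symbol, 214 had a lower mean in the knockout and 205 had no overlap, with a median log2 difference of -0.32. Among all genes tested, on 1 probe set each, these shares were 53.3% and 26.2%. A further 233 probe sets listed a ribosomal protein symbol together with other symbols; their genes are not named here, and 233 of 233 had a lower mean in the knockout. Many of these probe sets share sequence with one another and with processed pseudogenes, so they are repeated readings of related transcripts, not independent ones, and the array does not tell which copy was read. The 14 probe sets of Rps12 lay between -0.19 and -0.11, and those of Rpl13 between -0.61 and -0.47 over 9 probe sets. The 3 probe sets of Rpl41 held identical values on every array, and so did several of Rps12. Such repeats count the same reading more than once.

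The X-linked members Rps4x, Rpl10 and Rpl36a all read lower in the knockout without overlap, as 51 of the 57 members and 26.2% of all genes did. Their median log2 fold change was -0.28. Rpl36a read 3227 and 3628 in wild type against 2746 and 2623 in the knockout. Xist, transcribed from the inactive X chromosome, read 1306 and 1403 in wild type against 1630 and 2321 in the knockout. Its part in the X-linked values was not tested. Of 23 ribosomal protein genes listed as hosts of small nucleolar RNAs in their introns, 14 had a single-symbol probe set and were tested. All 14 read lower without overlap, beside 51 of the 57 members and 26.2% of all genes. The median log2 fold change of the 14 was -0.34.

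Of 12 ribosomal protein symbols listed outside the rule, 3 had a single-symbol probe set, and these also read lower in the knockout. Fau, whose product includes the small subunit protein RPS30, read 2688 and 2552 in wild type against 2309 and 2243 in the knockout (log2 fold change -0.20). Rpl7l1 read 1791 and 1802 against 1540 and 1258 (-0.37 on the log2 scale), and Rps3a1 442 and 427 against 406 and 341. In all 3 the genotypes did not overlap, where 26.2% of all genes read lower without overlap, and 0 of 3 passed the test.

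Of 17 translation factors and other genes with TOP messenger RNAs tested, 14 read lower in the knockout, where 53.3% of all genes did, and 12 without overlap, where 26.2% did. None was called in either direction, their median log2 fold change was -0.17, and their difference from the members was not tested. Eef1b2, a nucleotide exchange factor of elongation, read 2015 and 2065 in wild type against 1545 and 1567 in the knockout (log2 fold change -0.39). Eif3k, a subunit of initiation factor 3, read 756 and 728 against 592 and 550, Eif4a2, a helicase of initiation, 768 and 798 against 687 and 573, and Tpt1, the translationally controlled tumour protein gene, 4582 and 4192 against 3818 and 3414. The 3 that did not read lower were Btf3, Eif4b and Eif3l, at log2 fold changes of 0.00, 0.01 and 0.14.

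Of 76 mitochondrial ribosomal protein genes tested, 37 read lower in the knockout and 18 without overlap, where 26.2% of all genes did, and their median log2 fold change was 0.01. The test called 1 higher and 0 lower, against 4.79% and 3.5% of all genes. Mrpl32 rose from 153 and 152 in wild type to 209 and 262 in the knockout (log2 fold change 0.61, limma adjusted p = 0.00628), a call lost in 4 of 16 alternatives, among them the fits without either wild-type array or without knockout replicate 2. Mrpl30 and Mrpl15 read lower, at log2 fold changes of -0.45 and -0.44, and Mrpl57 higher, at 0.42, and none of them passed the test. The difference between the cytosolic and the mitochondrial list was not tested.

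**Figure D4:**
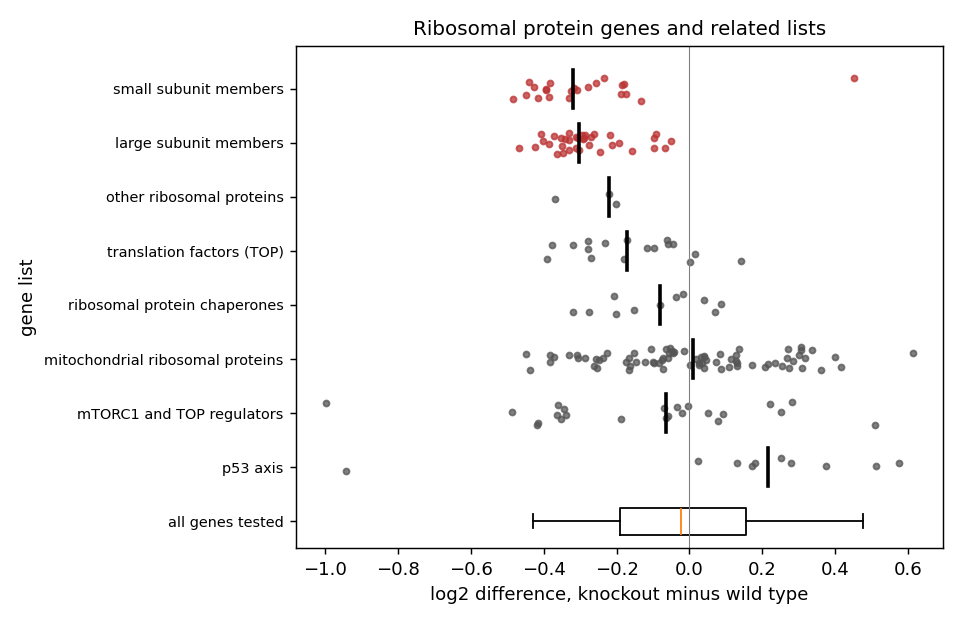
Each point is a gene tested, placed by its log2 difference between genotypes, with a black bar at each list's median; the box gives the quartiles, median and 5th to 95th percentiles of all 13956 genes tested. Small and large subunit members sit near medians of -0.32 and -0.30, TOP translation factors near -0.17 and mitochondrial ribosomal protein genes near 0.01.

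Among regulators of mTORC1 and of TOP messenger RNAs, 1 of 23 tested was called higher and 2 lower, against 4.79% and 3.5% of all genes. The median log2 fold change of the 23 was -0.06. Of the 23, 16 read lower in the knockout, where 53.3% of all genes did. Without overlap, 11 read lower and 5 higher, against 26.2% and 22.5% of all genes. Myc fell from 878 and 847 in wild type to 425 and 437 in the knockout (limma adjusted p = 3.51e-07). Eif4ebp2, a repressor of initiation that mTORC1 inactivates, fell from 1555 and 1213 to 978 and 982 (log2 fold change -0.49, limma adjusted p = 0.0499). Its call was lost in 11 of 16 alternatives, among them each fit without 1 array, with adjusted p-values of 0.00272 to 0.714 by limma. Tbc1d7, the third subunit of the TSC complex that restrains mTORC1, rose from 121 and 104 to 148 and 174 (log2 fold change 0.51, limma adjusted p = 0.0353), a call lost in 6 of 16 alternatives, with an adjusted p of up to 0.501 without wild-type replicate 2. Pdcd4, an inhibitor of the initiation helicase, read 2582 and 2324 against 1851 and 1812 and did not pass. Among 11 chaperones and adaptors of ribosomal proteins 0 were called in either direction, with a median of -0.08. Of the 11, 8 read lower in the knockout and 4 without overlap, where 53.3% and 26.2% of all genes did. Tsr2, the chaperone of RPS26, read 138 and 131 against 108 and 107, and Rsl24d1, Pdcd2 and Grwd1 had log2 fold changes of -0.28, -0.21 and -0.20.

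Of 13 genes of the p53 axis, listed because of Rps27l and the MDM2-binding members, 10 had a single-symbol probe set and were tested. Trp53, Cdkn1a and Bax had none. Of the 10, 2 were called higher and 1 lower, against 4.79% and 3.5% of all genes, with a median log2 fold change of 0.22. Pmaip1, the pro-apoptotic NOXA gene, rose from 101 and 89.0 in wild type to 175 and 115 in the knockout (log2 fold change 0.58). Phlda3, an inhibitor of AKT, rose from 82.1 and 69.8 to 118 and 99.5 (log2 fold change 0.51). The call of Pmaip1 was lost in 4 of 16 alternatives and that of Phlda3 in 7 of 15, in both cases without either wild-type array and without knockout replicate 1. Sesn1, which encodes sestrin 1, a brake on mTORC1, fell from 1028 and 1070 to 525 and 566 (log2 fold change -0.94). Sesn2 read 103 and 88.4 against 115 and 134 and did not pass.

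Macrophage markers and proliferation genes moved with genotype alongside the members. Of the 12 macrophage markers, 10 were tested and all 10 were called lower, where 3.5% of all genes were. All 12 together summed to 2796 and 2606 in wild type against 1089 and 1359 in the knockout. In the knockout some read as low as genes below the filter, such as Spic at 53.4 and 67.2. The brightest macrophage markers in wild type were Vcam1, Sirpa and C1qb. Of 9 proliferation genes tested, 8 were called higher, where 4.79% of all genes were. All 9 together summed to 4789 and 4690 in wild type against 5986 and 8654 in the knockout. Mki67, a marker of cycling cells, read 364 and 287 against 638 and 787. Of the plasma cell markers 2 of 4 tested were called higher, Prdm1 and Igha, while Xbp1 read lower without overlap and Jchain overlapped. Of the CD8 and NK cell markers 1 of 4 was called higher, Eomes, and Cd8a, Cd8b1 and Klrb1c were not called. Of the Treg, B cell and dendritic cell markers 0 were called in either direction. Among the 6 Treg markers, Il2ra (log2 fold change -0.45) and Foxp3 (-0.26) still read lower without overlap. Ikzf2 read higher without overlap (0.32), and Ctla4, Cd3e and Cd4 overlapped. The part of these lists in the ribosomal protein values was not tested.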

How the data were processed

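The values are 1 linear intensity per probe set and array, as deposited by the authors; their summarisation, background correction and normalization are not stated in the labels. Of 35557 probe sets, 21789 carried 1 gene symbol in the platform annotation, 1621 several and 12147 none. A gene was represented by its brightest single-symbol probe set. Values were taken as log2(intensity + 1), so fold changes of dim genes are understated. Genes under the 30th percentile of mean log2 were left out, and 13956 of 19938 genes were tested by a linear model with genotype as the only term and 2 arrays per group, using eBayes of limma 3.58.1 (R 4.3.3). P-values were adjusted by the Benjamini-Hochberg method over all genes tested, with a threshold of 0.05. The steps were checked on simulated data. The small number of arrays limits the precision.

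Named genes were Cyld, the 6 highest and 6 lowest members by log2 fold change, the 4 brightest and 4 dimmest, paralogs with their parents, stalk, X-linked and some well-known members, up to 4 genes of each related list, and marker genes. The members and lists were chosen with earlier results of these data known. Alternatives covered the pseudocount, filter, normalization, variance model, probe set choice, threshold, replicate block and leaving out each array; leaving out the paralogs was added after seeing the data.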

Additional observations from a re-analysis of the deposited data

How the results depend on the processing

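The count of members whose knockout arrays both lay below both wild-type arrays was between 47 and 54 over 19 alternatives. Those that changed only the variance model, replicate block or threshold could not alter it. Leaving out 1 array at a time gave 53 to 54, with 1 array fewer to compare and 36.8% to 44% of all genes in the same pattern. The count of members called lower by limma was 0 as reported. It was 2 with a pseudocount of 16, with quantile normalization and with the mean of all probe sets, Rpl13 and Rps29 each time. Those settings called 543, 521 and 499 of all 13956 genes lower. With the filter at the median it was 1, Rps29, beside 449 of 9969 genes. At an adjusted p under 0.10 it was 4, beside 678 of 13956. With the intensity trend it was 31, beside 575 of 13956. The count called higher was 1, Rps27l, with cyclic loess, beside 756 of 13956 genes, and at an adjusted p under 0.10, beside 817. The median log2 fold change of the members was -0.22 with quantile and -0.27 with cyclic loess normalization, and -0.34 to -0.26 without 1 array, the smallest shift without knockout replicate 2.

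The direction turned in 4 cases. The Rpl41 log2 fold change was 0.0172 with quantile normalization. Without 1 array, the Rpl10l log2 fold change ranged from -0.101 to 4.04e-05, the Rplp2 log2 fold change from -0.29 to 0.16 and the Grwd1 log2 fold change from -0.41 to 0.0085. The cause was not tested. With the replicate block, 0 members were lower and 0 higher and the smallest adjusted p was 0.0738 by limma. The labels give only shared numbers, and deviations of same-numbered arrays correlated at r = -0.092 across 13956 genes.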
